A study of Homo sapiens with 6 samples.

Results

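TGF-beta, BMP and activin signalling was followed through 44 genes in the C4-2B model of enzalutamide resistance. The genes were taken by name as the secreted ligands, their receptors, the SMAD proteins, the ID target genes, the inhibitors and the latent TGF-beta binding proteins (LTBPs). They are 44 of the 58024 genes in the expression table, and all 44 names were found there. C4-2B is a human prostate cancer cell line, a bone-metastatic derivative of C4-2, which itself came from LNCaP cells grown in castrated mice. Libraries of total RNA were made from C4-2B parental cells (n = 3) and from C4-2B enzalutamide resistant cells (n = 3). The parental cells carried no selection with enzalutamide, an antiandrogen drug, and were passaged in parallel with dimethyl sulfoxide as vehicle, at 1% by the labels and at a lower concentration by the paper's methods. The resistant cells had gone through rising enzalutamide, from 1 to 20 µM, over 6 months and were then held in 5 µM. Both groups were grown in the same RPMI medium with fetal bovine serum. The extraction step names enzalutamide at 10 µM after both cell names, so it is not clear whether the parental cells were exposed to it as well. The resistant cells are the surviving population of a single line, and nothing states that the 3 libraries of a group came from separate cultures, so the p values measure the spread among these libraries, which may be technical.

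Ligands of this family bind a pair of receptor kinases, a type II receptor that binds ligand and a type I receptor that it then phosphorylates. Type I receptors for TGF-beta and activin pass the signal to SMAD2 and SMAD3, those for BMPs to SMAD1, SMAD5 and SMAD9, and both branches share SMAD4, with which they enter the nucleus. ID genes are classical transcriptional targets of the BMP branch, whereas SMAD6, SMAD7, BAMBI, SKI and SKIL restrain the pathway, several of them as its own targets. In the prostate, TGF-beta is known to limit the growth of normal epithelium, and BMPs are studied for their part in bone metastasis.

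Values are given as FPKM (sequenced fragments for each kilobase of a transcript, scaled by the number of mapped fragments in the library), which corrects for gene length, so that levels of different genes can be set side by side. Coordinates are those of GRCh38 in the GENCODE v44 annotation. Log2 differences are resistant minus parental on the scale log2(FPKM + 0.1), which understates the change of genes near or below 0.1 FPKM. They were tested with limma, a linear model fitted across the 24468 genes that averaged 0.1 FPKM or more, and a gene was called a differentially expressed gene (DEG) when its two-sided p, adjusted by the Benjamini-Hochberg method, was below 0.05. Values of single libraries are given for replicates 0, 1 and 2 in turn, parental before resistant. A value of 0 is reported as listed at 0, and no fold is given where all libraries of a group are at 0.

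The libraries held 21956 to 27153 genes above 0, and their depth, estimated from the value of a single read on genes with 1 transcript, was 1.38e+07 to 2.05e+07 reads. A single read on a transcript of 2000 bases was then worth 0.0271 to 0.0402 FPKM. Luminal prostate markers were present in both groups, with HOXB13 at 103 ± 6.91 and 102 ± 3.76 FPKM in parental and resistant cells (SD, n = 3 each), while KLK3, which encodes prostate-specific antigen, was at 2556 ± 274 and 44 ± 2.58 FPKM. Of 9 luminal markers, 2 were higher and 6 lower in the resistant cells. Of 7 neuroendocrine markers, 4 were higher (CHGA, CHGB, SYP and ENO2), and the summed level of the list was 7.07 to 11.3 FPKM in parental and 189 to 211 FPKM in resistant libraries, with INSM1 at no more than 0.0558 FPKM in any of them. Of 8 fibroblast markers, 2 were higher (DCN and LUM) and 1 lower (PDGFRB), with a sum of 8.07 to 11.4 FPKM against 8.41 to 15 FPKM, and COL1A2 and PDGFRA were at no more than 0.132 FPKM. Of the 5 immune markers 1 was higher, with a sum of 0.0879 to 0.843 FPKM against 0.229 to 1.61 FPKM and CD3E at 0. Of the 4 endothelial markers VWF was lower, with a sum of 0.568 to 1.14 FPKM against 0.0946 to 0.420 FPKM and KDR at 0. Of the 4 basal markers KRT15 was higher and KRT14 lower, with a sum of 0.559 to 0.987 FPKM against 1.78 to 1.86 FPKM and TP63 at 0 in parental libraries. The part of other cell types in the differences that follow was not tested, and in bulk RNA fewer cells with a transcript and less of it per cell cannot be told apart.

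Most of the pathway was expressed at a different level in the resistant cells. Of the 44 genes, 40 passed the filter, and 30 of these (75.0%) were DEGs, 20 upregulated and 10 downregulated in the C4-2B enzalutamide resistant cells. Over all genes tested, 44.4% were DEGs, 22.1% upregulated and 22.3% downregulated. The share was 53.2% among genes that averaged 1 FPKM or more, where 26 of 33 pathway genes were DEGs, and 55.7% among protein-coding genes. The 3 values of a group lay apart from the 3 of the other in all 30 DEGs and in 3 further genes (BMP6, TGFBR2 and BMPR2), and over all genes tested in 54.8%. The median log2 difference was 0.79 over the 40 genes and 0.61 over the 39 that were above 0 in both groups, against −0.05 over all genes tested. With 3 values against 3, an exact two-sided permutation test of a single gene cannot go below p = 0.1.

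**Figure D1:**
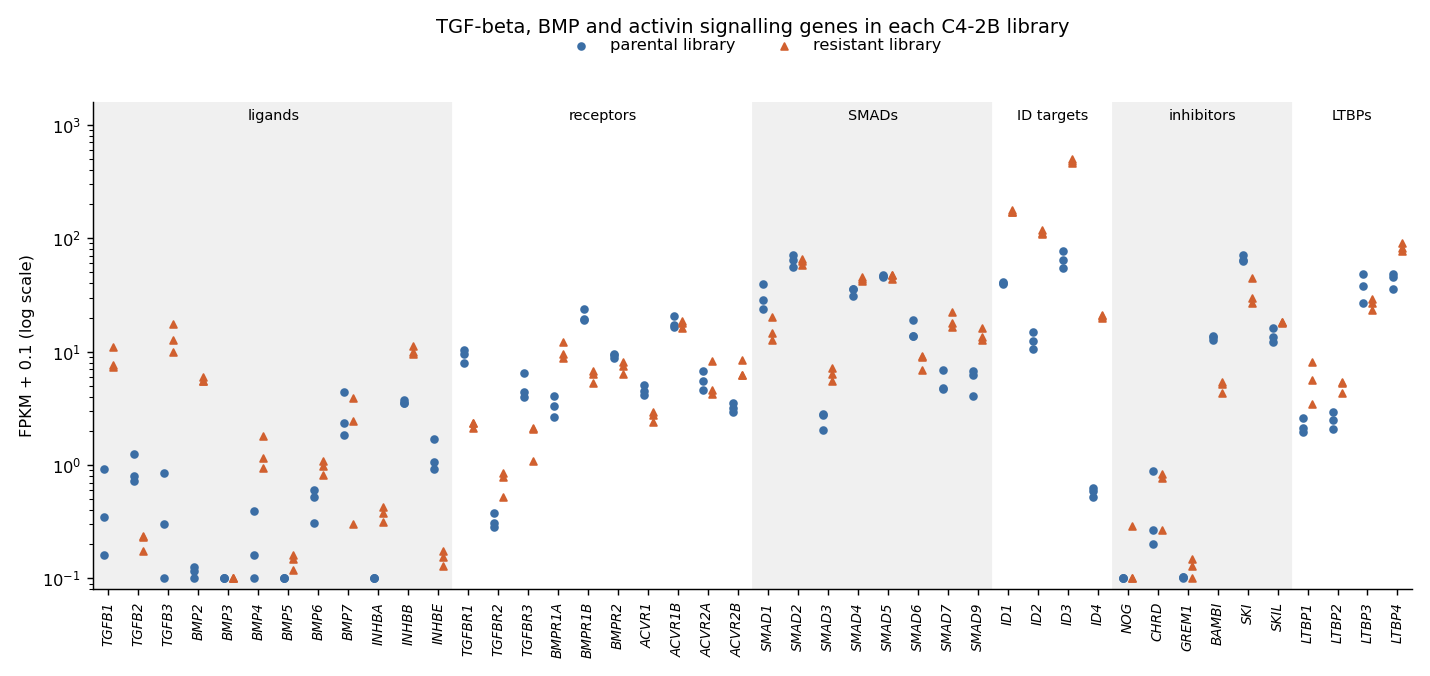
Level of each of the 44 genes in each library, as FPKM + 0.1 on a log axis, with 1 point per library and genes in the order of their roles. The ID genes of the resistant libraries (triangles) lie above all parental libraries (circles), and points drawn at 0.1 are at or near 0 FPKM.

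**Figure D2:**
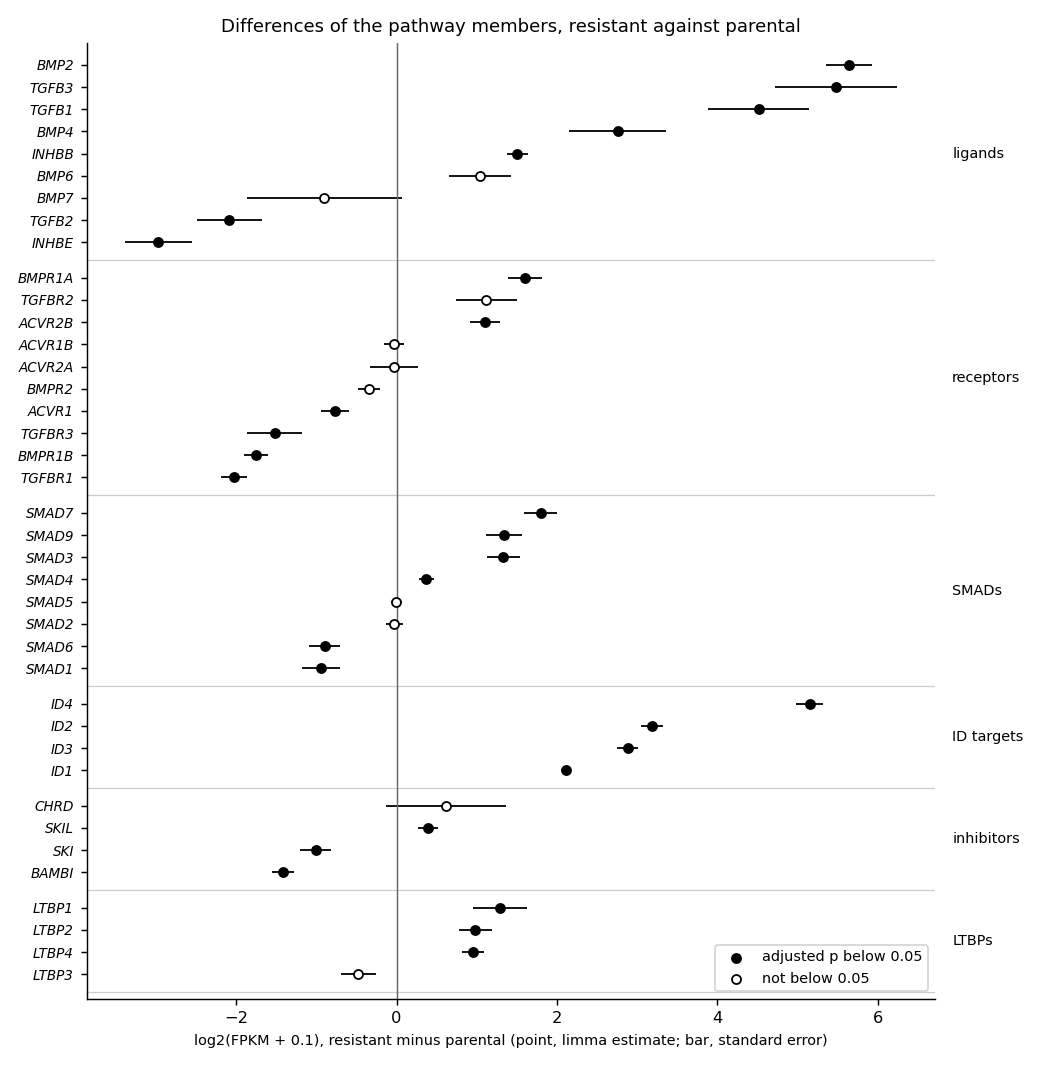
Log2 difference between resistant and parental cells (x axis, points to the right higher in resistant cells) for 39 genes, with bars of 1 standard error from limma and filled points for DEGs. The ligands run from −2.97 for INHBE to 5.64 for BMP2, and the 4 ID genes from 2.11 to 5.15.

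Among the 12 ligands, 10 were tested, of which 6 were upregulated and 2 downregulated. Their summed level was 8.17, 8.33 and 11.8 FPKM in parental libraries and 45.4, 39.1 and 42.4 FPKM in resistant libraries. The isoforms of TGF-beta changed in opposite directions. TGFB1 (chr19:41301587-41353922, minus strand), the isoform best known from platelets and immune regulation, was at 0.252, 0.816 and 0.0606 FPKM in parental and 7.53, 7.25 and 10.9 FPKM in resistant libraries. Every resistant library lay above every parental one, and the log2 difference was 4.52 (standard error 0.63, limma, Benjamini-Hochberg adjusted p = 0.0017). TGFB3 (chr14:75958097-75983011, minus strand), known from palate fusion, had 0.20, 0 and 0.753 FPKM in parental libraries, listed at 0 in 1 of them, and 17.5, 12.7 and 9.92 FPKM in resistant libraries. The resistant values were again all higher, with a log2 difference of 5.48 (standard error 0.76, limma, Benjamini-Hochberg adjusted p = 0.00165). TGFB2, an isoform that needs the co-receptor TGFBR3 for efficient binding, went the other way, from 0.702, 0.63 and 1.16 FPKM to 0.0754, 0.132 and 0.138 FPKM. It fell by 2.09 on the log2 scale without overlap between the groups (standard error 0.40, limma, Benjamini-Hochberg adjusted p = 0.00661). Set against each other, TGFB2 made up 60.8%, 43.6% and 58.8% of the summed TGF-beta transcripts in parental libraries and 0.30%, 0.655% and 0.658% in resistant libraries, while the sum went from 1.15, 1.45 and 1.98 FPKM to 25.1, 20.1 and 21.0 FPKM.

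TGFB1 and TGFB3 sit in loci that the deposited table lists together with other genes. Next to TGFB1, EXOSC5 (18.7 and 44.9 FPKM in parental and resistant means), HNRNPUL1 (78.8 and 149 FPKM) and BCKDHA (14.3 and 56.2 FPKM) were upregulated as well, CCDC97 was downregulated (12.5 and 8.75 FPKM), and HNRNPUL1 shares 215 exonic bases with TGFB1, 6.59% of the TGFB1 exons. Next to TGFB3, C14orf1 (13.4 and 97.1 FPKM), FLVCR2 (11.8 and 84.7 FPKM) and IFT43 (21.7 and 31.7 FPKM) were upregulated. These neighbours were above 0 in every parental library, and their part in the values of TGFB1 and TGFB3 was not tested.

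BMP2 (chr20:6767686-6780246, plus strand), a ligand that drives bone formation, had the highest estimate of the 39 genes, within a standard error of that of TGFB3. It was at 0.0167, 0 and 0.025 FPKM in parental libraries, where 1 library was listed at 0, and at 5.88, 5.39 and 5.4 FPKM in resistant libraries, a log2 difference of 5.64 (standard error 0.29, limma, Benjamini-Hochberg adjusted p = 3.52e-05). The rank of BMP2 depended on the scale. On log2(FPKM + 1) its difference was 2.69, below 3.45 for TGFB3 and 2.81 for TGFB1. On log2(FPKM + 0.01) it was 8.04, above 6.80 for TGFB3 and 5.09 for TGFB1. BMP4, the closest relative of BMP2, was listed at 0.0624, 0.292 and 0 FPKM in parental and 0.848, 1.06 and 1.7 FPKM in resistant libraries. It was higher in each resistant library, at a lower level than BMP2 (log2 difference 2.76, standard error 0.60, limma, Benjamini-Hochberg adjusted p = 0.0108). BMP6, a ligand known for iron control through hepcidin, had 0.425, 0.504 and 0.211 FPKM and 0.877, 0.982 and 0.711 FPKM, which did not overlap and did not pass the threshold (log2 difference 1.04, standard error 0.39, limma, Benjamini-Hochberg adjusted p = 0.0718). BMP7, needed for kidney development, spread widely, with 2.26, 1.72 and 4.3 FPKM in parental and 2.36, 0.204 and 3.78 FPKM in resistant libraries. Its groups overlapped, and resistant replicate 1 stood below the other libraries (log2 difference −0.90, standard error 0.97, limma, Benjamini-Hochberg adjusted p = 0.478). Without that library the log2 difference of BMP7 was 0.21, so its direction rests on it. BMP3, which can oppose other BMPs, was listed at 0 in all 6 libraries, and BMP5 was at 0 in parental libraries and at 0.0469, 0.0183 and 0.0624 FPKM in resistant libraries, so that neither was tested.

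The activin subunits also diverged. INHBB (chr2:120346136-120351803, plus strand), which encodes the beta B subunit of activin B and inhibin B, had 3.43, 3.4 and 3.64 FPKM in parental and 9.91, 11.1 and 9.36 FPKM in resistant libraries. Its means of 3.49 ± 0.129 and 10.1 ± 0.897 FPKM (SD, n = 3 each) differed 2.9-fold (log2 difference 1.51, standard error 0.13, limma, Benjamini-Hochberg adjusted p = 0.000268). INHBA, the beta A subunit, was listed at 0 in every parental library and at 0.33, 0.212 and 0.277 FPKM in resistant libraries (limma, Benjamini-Hochberg adjusted p = 0.0118). INHBE, a beta E subunit known mainly from liver, dropped from 0.814, 0.968 and 1.6 FPKM to 0.0276, 0.0545 and 0.0753 FPKM. All its resistant values lay close to 0, and it fell by 2.97 on the log2 scale (standard error 0.41, limma, Benjamini-Hochberg adjusted p = 0.0017).

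Of the 10 receptors, all were tested, 2 were upregulated and 4 downregulated, and the summed level was 75.8 to 82.9 FPKM in parental and 58.5 to 61.1 FPKM in resistant libraries. The receptors for TGF-beta itself were divided. TGFBR1 (chr9:99104038-99154192, plus strand), the type I receptor kinase for TGF-beta, had 9.5, 7.81 and 10.2 FPKM in parental and 2.25, 2.25 and 2.02 FPKM in resistant libraries. The parental mean of 9.18 ± 1.24 FPKM was 4.23 times the resistant mean of 2.17 ± 0.13 FPKM (log2 difference −2.02, standard error 0.17, limma, Benjamini-Hochberg adjusted p = 0.0002). TGFBR3, or betaglycan, the co-receptor that presents ligand, had 4.28, 3.89 and 6.32 FPKM and 0.985, 1.99 and 2.01 FPKM and was lower in every resistant library (log2 difference −1.52, standard error 0.34, limma, Benjamini-Hochberg adjusted p = 0.0123). Without parental replicate 2, the highest library, the adjusted p of TGFBR3 from the same limma fit was 0.0544. TGFBR2, the type II receptor that binds TGF-beta, stayed low in both groups, with 0.186, 0.28 and 0.21 FPKM and 0.425, 0.678 and 0.744 FPKM. Its resistant values were all above the parental ones and missed the threshold (log2 difference 1.12, standard error 0.38, limma, Benjamini-Hochberg adjusted p = 0.0538), and without resistant replicate 0 its limma adjusted p was 0.0271.

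BMPR1A and BMPR1B, the closely related type I receptors for BMP2 and BMP4, traded places. BMPR1A (chr10:86756596-86932825, plus strand) had 2.57, 3.25 and 3.92 FPKM in parental and 12, 8.62 and 9.37 FPKM in resistant libraries, 3.08-fold between the means (log2 difference 1.60, standard error 0.21, limma, Benjamini-Hochberg adjusted p = 0.00142). BMPR1B (chr4:94757955-95158448, plus strand) had 18.9, 19.4 and 23.5 FPKM and 5.2, 6.65 and 6.26 FPKM, so that the parental mean was 3.41 times the resistant one (log2 difference −1.75, standard error 0.15, limma, Benjamini-Hochberg adjusted p = 0.000213). The ratio of BMPR1A to BMPR1B was 0.136, 0.167 and 0.167 in parental libraries and 2.31, 1.30 and 1.5 in resistant libraries. BMPR1B was thus the more abundant transcript in each parental library and BMPR1A in each resistant library, and their sum was 21.5 to 27.4 FPKM against 15.3 to 17.2 FPKM.

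BMPR2, the type II receptor for BMPs, had 8.74, 9.36 and 9.16 FPKM and 6.2, 7.98 and 7.33 FPKM, lower without overlap and short of the threshold (log2 difference −0.34, standard error 0.14, limma, Benjamini-Hochberg adjusted p = 0.0838). ACVR1, a type I receptor for BMPs and activin, had 4.44, 4.08 and 4.93 FPKM in parental and 2.32, 2.65 and 2.82 FPKM in resistant libraries, where all values were lower (log2 difference −0.77, standard error 0.17, limma, Benjamini-Hochberg adjusted p = 0.0125). ACVR2B, a type II receptor for activin, had 3.44, 2.83 and 3.06 FPKM and 6.09, 6.09 and 8.34 FPKM, and all resistant values were higher (log2 difference 1.10, standard error 0.19, limma, Benjamini-Hochberg adjusted p = 0.00397). The values of its relative ACVR2A overlapped, with 6.67, 4.51 and 5.36 FPKM and 4.47, 8.14 and 4.15 FPKM (log2 difference −0.03, standard error 0.30, limma, Benjamini-Hochberg adjusted p = 0.949). ACVR1B, the main type I receptor for activin, overlapped as well, with 17, 20.6 and 16.2 FPKM and 18.6, 16.1 and 17.9 FPKM (log2 difference −0.03, standard error 0.13, limma, Benjamini-Hochberg adjusted p = 0.875). ACVR2A shares 431 exonic bases with ORC4, which was downregulated.

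**Figure D3:**
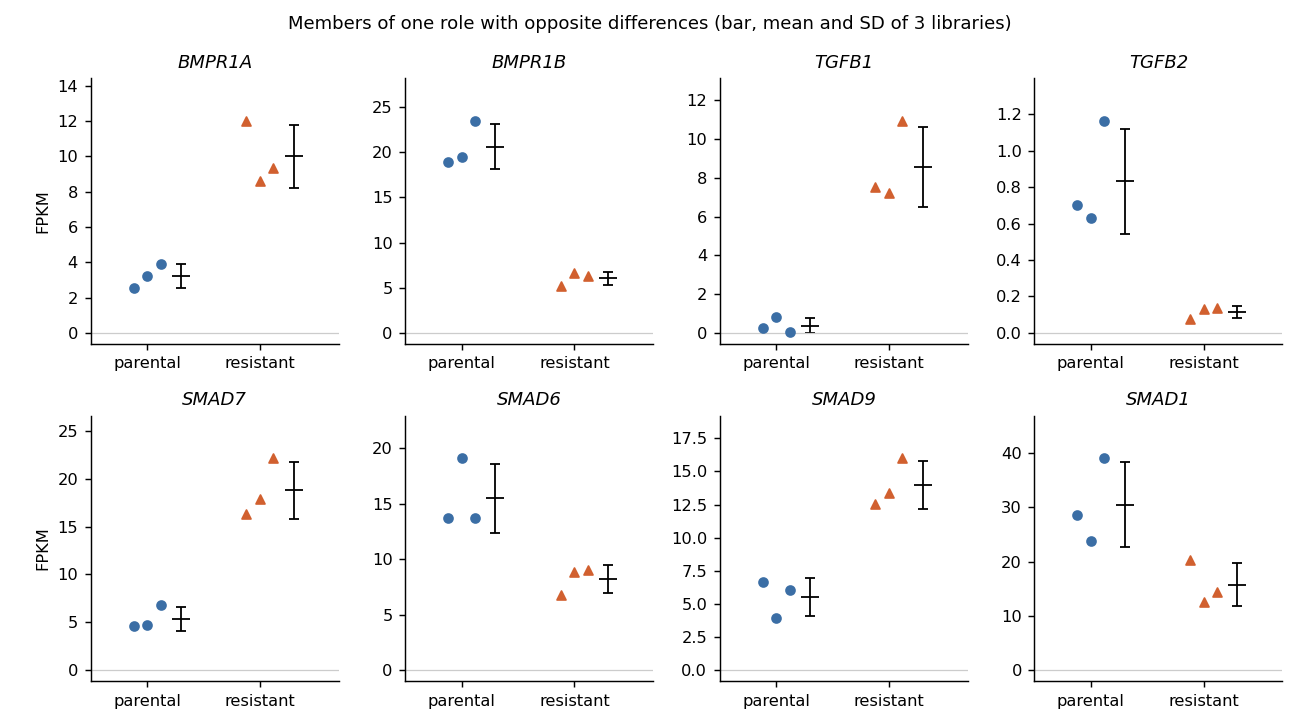
FPKM by library (points) with the mean and SD of 3 libraries (bar beside the points) for genes of the same role that differed in opposite directions. BMPR1A is at 2.57 to 3.92 FPKM in parental and 8.62 to 12 FPKM in resistant libraries, and BMPR1B at 18.9 to 23.5 and 5.2 to 6.65 FPKM. The other pairs are TGFB1 with TGFB2, SMAD7 with SMAD6 and SMAD9 with SMAD1.

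All 8 SMAD genes were tested, of which 4 were upregulated and 2 downregulated. The receptor-activated SMADs overlapped in their summed level and differed in their make-up. For the BMP branch, SMAD1, SMAD5 and SMAD9 summed to 80.4, 74.9 and 91.2 FPKM in parental libraries and to 80.1, 73.0 and 74.2 FPKM in resistant libraries, which overlap. Within this sum SMAD9 made up 8.29%, 5.25% and 6.66% in parental libraries and 15.6%, 18.3% and 21.5% in resistant libraries. SMAD9 had 6.67, 3.94 and 6.07 FPKM and 12.5, 13.4 and 16 FPKM, with all resistant values higher (log2 difference 1.34, standard error 0.22, limma, Benjamini-Hochberg adjusted p = 0.00366). SMAD1 had 28.5, 23.9 and 39 FPKM and 20.3, 12.6 and 14.5 FPKM, with all resistant values lower (log2 difference −0.94, standard error 0.24, limma, Benjamini-Hochberg adjusted p = 0.0198). The call for SMAD1 was lost when parental replicate 0 or 2 or resistant replicate 1 or 2 was left out, with limma adjusted p from 0.0661 to 0.0856. SMAD5 overlapped between the groups, with 45.3, 47.1 and 46 FPKM and 47.3, 46.9 and 43.8 FPKM (log2 difference −0.01, standard error 0.07, limma, Benjamini-Hochberg adjusted p = 0.961).

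For the TGF-beta and activin branch, SMAD2 was by far the more abundant transcript, with overlapping values of 64.4, 55.4 and 71.6 FPKM in parental and 58.4, 65.3 and 63.4 FPKM in resistant libraries (log2 difference −0.03, standard error 0.11, limma, Benjamini-Hochberg adjusted p = 0.865). SMAD3 was upregulated from 1.94, 2.75 and 2.64 FPKM to 6.27, 5.4 and 7.14 FPKM (log2 difference 1.33, standard error 0.21, limma, Benjamini-Hochberg adjusted p = 0.00266). Its share of the sum of SMAD2 and SMAD3 was 2.93%, 4.72% and 3.56% in parental libraries and 9.70%, 7.64% and 10.1% in resistant libraries. SMAD4, the partner of both branches, had 30.6, 35.5 and 35.5 FPKM and 45.7, 44 and 41.6 FPKM, a small difference without overlap (log2 difference 0.37, standard error 0.09, limma, Benjamini-Hochberg adjusted p = 0.0172). Without resistant replicate 0 the limma adjusted p of SMAD4 was 0.0510.

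The inhibitory SMADs moved apart. SMAD7 (chr18:48919853-48950965, minus strand), which blocks type I receptors of both branches, had 4.61, 4.68 and 6.84 FPKM in parental and 16.3, 17.9 and 22.1 FPKM in resistant libraries. Its resistant mean was 3.49 times the parental mean (log2 difference 1.80, standard error 0.20, limma, Benjamini-Hochberg adjusted p = 0.000698). SMAD6 (chr15:66702236-66782849, plus strand), which acts mainly on the BMP branch, had 13.7, 19.1 and 13.7 FPKM and 6.77, 8.88 and 9.06 FPKM, lower in each resistant library (log2 difference −0.90, standard error 0.19, limma, Benjamini-Hochberg adjusted p = 0.00928). The ratio of SMAD7 to SMAD6 was 0.337, 0.245 and 0.499 in parental libraries and 2.41, 2.01 and 2.44 in resistant libraries, so that SMAD6 was the higher in all parental and SMAD7 in all resistant libraries.

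All 4 ID genes were upregulated. They encode helix-loop-helix proteins that lack a DNA-binding region and hold back basic helix-loop-helix transcription factors. Together they had 116, 107 and 133 FPKM in parental libraries and 771, 807 and 779 FPKM in resistant libraries. ID3 (chr1:23557926-23559501, minus strand) was the highest, with 64.7, 54.2 and 77.8 FPKM in parental and 461, 498 and 477 FPKM in resistant libraries. Ordered by level among all genes, it stood at place 2081, 2439 and 1743 in the parental and at place 162, 162 and 166 in resistant libraries. Its means of 65.6 ± 11.8 and 479 ± 18.7 FPKM (SD, n = 3 each) differed 7.3-fold (log2 difference 2.88, standard error 0.13, limma, Benjamini-Hochberg adjusted p = 2.49e-05). ID1 (chr20:31605283-31606515, plus strand) had 40.7, 40.0 and 39.5 FPKM and 170.1, 179 and 170.2 FPKM, with means of 40.1 ± 0.608 and 173 ± 5.17 FPKM. The spread within each group was small beside the 4.32-fold difference (log2 difference 2.11, standard error 0.06, limma, Benjamini-Hochberg adjusted p = 5.4e-06). ID2 (chr2:8678845-8684461, plus strand) had 10.4, 12.4 and 14.9 FPKM and 119, 109 and 112 FPKM, a 9.04-fold difference of the means (log2 difference 3.18, standard error 0.14, limma, Benjamini-Hochberg adjusted p = 2.15e-05). ID4 (chr6:19837370-19842197, plus strand) was the lowest in the parental cells, with 0.42, 0.529 and 0.489 FPKM, and reached 20.6, 20.8 and 19.8 FPKM in resistant libraries. Its log2 difference of 5.15 was the largest of the 4 (standard error 0.16, limma, Benjamini-Hochberg adjusted p = 7.92e-06). In both groups the order of levels was ID3 first and ID4 last, while ID1 exceeded ID2, and no neighbours in this order overlapped. The 4 neuroendocrine markers named above were higher in the same libraries, and their part in the ID levels was not tested. ID2-AS1, which shares 145 exonic bases with ID2, was upregulated from 0.423 to 1.95 FPKM (means), and a non-coding gene at the ID4 locus, RP4-625H18.2, from 2.15 to 12.4 FPKM. ID2-AS1 lay below ID2 in both groups, whereas RP4-625H18.2 lay above ID4 in every parental library and below it in every resistant library.

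**Figure D4:**
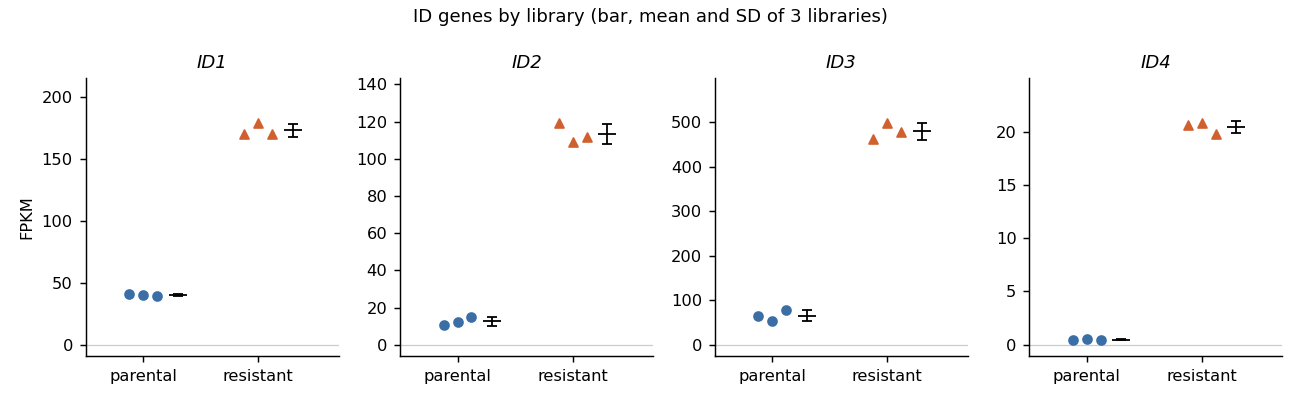
FPKM of ID1, ID2, ID3 and ID4 in each library (points) with the mean and SD of 3 libraries per group (bar). Each panel has its own axis from 0, and in all of them the resistant libraries lie above the parental ones, for ID3 at 461 to 498 against 54.2 to 77.8 FPKM.

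Promoter sequence is shown for the ID genes, which moved together, and for 3 feedback inhibitors, of which SMAD7 rose and SMAD6 and BAMBI fell. The letters are the 250 bases before the RefSeq start of each gene in GRCh38.p14, 5′ to 3′ on the strand of the gene, and 38 of the 44 genes were found in the promoter table. Capitals mark matches to GGCGCC, a core of GC-rich SMAD sites, to CAGAC on either strand (CAGAC or GTCTG), the short SMAD-binding element, and to the palindrome GTCTAGAC, which holds neither of the other motifs. Of 35116 promoters of this length, 16.4% hold GGCGCC, 38% CAGAC and 0.182% GTCTAGAC.
ID1, chr20:31605039-31605288, plus strand: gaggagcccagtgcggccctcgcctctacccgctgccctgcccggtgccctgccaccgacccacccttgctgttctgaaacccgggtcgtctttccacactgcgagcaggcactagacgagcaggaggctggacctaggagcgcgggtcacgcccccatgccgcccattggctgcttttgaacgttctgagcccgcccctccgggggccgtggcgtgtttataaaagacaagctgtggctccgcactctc
ID2, chr2:8681806-8682055, plus strand: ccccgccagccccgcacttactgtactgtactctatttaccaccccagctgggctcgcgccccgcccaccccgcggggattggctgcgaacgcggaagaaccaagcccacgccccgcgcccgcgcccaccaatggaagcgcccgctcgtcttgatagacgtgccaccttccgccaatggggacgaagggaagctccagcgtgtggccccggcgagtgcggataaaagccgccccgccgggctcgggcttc
ID3, chr1:23559502-23559751, minus strand: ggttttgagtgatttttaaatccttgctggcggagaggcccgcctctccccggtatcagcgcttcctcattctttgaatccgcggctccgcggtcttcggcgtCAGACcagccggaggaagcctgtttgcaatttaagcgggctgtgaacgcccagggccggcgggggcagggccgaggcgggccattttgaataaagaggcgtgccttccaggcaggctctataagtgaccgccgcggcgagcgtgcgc
ID4, chr6:19837120-19837369, plus strand: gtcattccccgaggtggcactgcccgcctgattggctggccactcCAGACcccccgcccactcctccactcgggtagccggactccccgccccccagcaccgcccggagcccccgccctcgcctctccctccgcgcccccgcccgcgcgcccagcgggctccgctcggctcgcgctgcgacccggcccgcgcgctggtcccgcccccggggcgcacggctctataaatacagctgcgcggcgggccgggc
SMAD6, chr15:66701986-66702235, plus strand: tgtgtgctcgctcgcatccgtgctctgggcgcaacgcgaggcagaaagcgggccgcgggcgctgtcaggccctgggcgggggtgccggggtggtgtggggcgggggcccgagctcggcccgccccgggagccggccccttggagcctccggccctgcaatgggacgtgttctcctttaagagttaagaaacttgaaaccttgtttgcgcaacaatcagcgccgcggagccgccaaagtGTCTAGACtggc
SMAD7, the first of its 3 starts in the table, chr18:48950966-48951215, minus strand: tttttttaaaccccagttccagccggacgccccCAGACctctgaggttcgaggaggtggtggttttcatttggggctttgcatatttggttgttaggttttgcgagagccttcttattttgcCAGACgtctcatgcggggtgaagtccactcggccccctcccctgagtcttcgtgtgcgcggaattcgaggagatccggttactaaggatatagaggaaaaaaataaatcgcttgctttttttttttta
BAMBI, chr10:28677271-28677520, plus strand: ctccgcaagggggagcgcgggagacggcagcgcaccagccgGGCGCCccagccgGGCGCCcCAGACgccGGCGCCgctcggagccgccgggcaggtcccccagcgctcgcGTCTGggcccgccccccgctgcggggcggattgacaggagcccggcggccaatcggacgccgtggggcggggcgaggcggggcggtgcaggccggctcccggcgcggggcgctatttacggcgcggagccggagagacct

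In these windows ID1 and ID2 held no match, ID3 and ID4 held 1 CAGAC each, 147 and 205 bases before the start, and SMAD7 held 2. SMAD6 held the palindrome, 12 bases before its start, and BAMBI held 3 copies of GGCGCC and 2 of CAGAC. The window of SKIL, an upregulated inhibitor whose sequence was also searched and is not printed, held 1 GGCGCC and 1 CAGAC, and the other starts of SMAD7 held 1 CAGAC and no match. The matches are letters and not shown binding sites. Only these 250 bases were searched, so the absence of a match says nothing about sites further from the start. The part of these motifs in the differences was not tested.

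Of the 6 inhibitors, 4 were tested, 1 was upregulated and 2 were downregulated. BAMBI (chr10:28677510-28682932, plus strand), a receptor without a kinase that acts as a decoy, had 13.4, 13.5 and 12.5 FPKM in parental and 4.26, 5.32 and 5.05 FPKM in resistant libraries. The groups lay well apart, and the parental mean was 2.69 times the resistant one (log2 difference −1.42, standard error 0.13, limma, Benjamini-Hochberg adjusted p = 0.000331). SKI, a nuclear corepressor that binds SMAD complexes, had 62.8, 64.6 and 70.7 FPKM and 26.5, 29.8 and 44.2 FPKM, lower in each resistant library (log2 difference −1.01, standard error 0.19, limma, Benjamini-Hochberg adjusted p = 0.00617). Its relative SKIL, also known as SnoN, had 12.1, 16.1 and 13.3 FPKM and 18.3, 18.1 and 17.8 FPKM, higher in each resistant library by little (log2 difference 0.39, standard error 0.12, limma, Benjamini-Hochberg adjusted p = 0.0434). The call for SKIL was the least stable of the 30: leaving out any library but parental replicate 1 gave a limma adjusted p from 0.0937 to 0.107. The secreted BMP antagonists were low in both groups. CHRD (chordin) had overlapping values of 0.165, 0.789 and 0.101 FPKM and 0.728, 0.662 and 0.169 FPKM (log2 difference 0.61, standard error 0.75, limma, Benjamini-Hochberg adjusted p = 0.532). NOG (noggin) was listed at 0 in all libraries but resistant replicate 1, with 0.189 FPKM, and GREM1 (gremlin) was at no more than 0.0485 FPKM in any library, so that neither was tested.

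The LTBPs hold latent TGF-beta in the extracellular matrix, except LTBP2, which is not known to bind it. All 4 were tested, and 3 were upregulated. LTBP4 was the most abundant in resistant libraries, with 35.4, 48.7 and 45.4 FPKM in parental and 91.2, 77.1 and 82.1 FPKM in resistant libraries and no overlap (log2 difference 0.96, standard error 0.14, limma, Benjamini-Hochberg adjusted p = 0.0019). LTBP2 had 2.41, 2.0 and 2.87 FPKM and 5.14, 4.18 and 5.26 FPKM, all resistant values being higher (log2 difference 0.98, standard error 0.21, limma, Benjamini-Hochberg adjusted p = 0.00909). LTBP1 had 2.01, 2.51 and 1.85 FPKM and 3.36, 8.0 and 5.57 FPKM, with a wide spread among the resistant libraries (log2 difference 1.29, standard error 0.33, limma, Benjamini-Hochberg adjusted p = 0.0208). The call for LTBP1 was lost without parental replicate 0 or 2 or resistant replicate 1 or 2, with limma adjusted p from 0.0616 to 0.0834. LTBP3 overlapped between the groups, with 37.6, 48.1 and 26.8 FPKM and 28.9, 26.9 and 23.1 FPKM (log2 difference −0.48, standard error 0.22, limma, Benjamini-Hochberg adjusted p = 0.126), and without parental replicate 2 its limma adjusted p was 0.0271.

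A wider list of 77 further genes of the pathway was counted in the same way. Of these, 56 were tested, 19 were upregulated and 19 downregulated, or 67.9% beside 44.4% of all genes tested and 55.7% of protein-coding genes. Among the genes that present or release latent TGF-beta, 4 of the 5 tested were upregulated and 1 was downregulated, and among 12 other target genes 1 was upregulated and 7 were downregulated. FURIN, the protease that cleaves pro-TGF-beta, was at 8.6, 7.4 and 7.54 FPKM in parental and 20.8, 23.2 and 26.2 FPKM in resistant libraries (log2 difference 1.56, standard error 0.13, limma, Benjamini-Hochberg adjusted p = 0.000191). FSTL3, a secreted activin inhibitor, had 3.77, 2.87 and 3.93 FPKM and 12.7, 11.4 and 14.2 FPKM (log2 difference 1.83, standard error 0.17, limma, Benjamini-Hochberg adjusted p = 0.000344). STRAP, an intracellular partner of SMAD7 that restrains TGF-beta signalling, had 60.2, 54.5 and 63.5 FPKM and 112, 131 and 123 FPKM (log2 difference 1.04, standard error 0.09, limma, Benjamini-Hochberg adjusted p = 0.000282). In all of these the resistant values lay above the parental ones.

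The strongest decrease by adjusted p was in GDF15, a distant ligand of the family that signals through GFRAL, with 291, 271 and 297 FPKM in parental and 24.8, 27.5 and 30.2 FPKM in resistant libraries (log2 difference −3.38, standard error 0.09, limma, Benjamini-Hochberg adjusted p = 4.6e-06). NEDD4L, a ubiquitin ligase that turns over activated SMADs, went from 411, 365 and 400.3 FPKM to 78.1, 108 and 78.4 FPKM (log2 difference −2.17, standard error 0.14, limma, Benjamini-Hochberg adjusted p = 7.77e-05). CDKN1A, which encodes the cell cycle inhibitor p21, went from 90.4, 75.1 and 83.3 FPKM to 28.1, 29.6 and 31 FPKM (log2 difference −1.48, standard error 0.09, limma, Benjamini-Hochberg adjusted p = 6.9e-05). All resistant values of these genes lay below the parental ones.

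Of the 12 other target genes counted above, CTGF alone was upregulated, and 7 were downregulated. CTGF was near 0 in parental libraries, at 0.0253, 0 and 0.15 FPKM, and at 3.31, 3.59 and 2.04 FPKM in resistant libraries (log2 difference 4.36, standard error 0.47, limma, Benjamini-Hochberg adjusted p = 0.000613). PMEPA1, a feedback inhibitor of the TGF-beta branch, overlapped between the groups at 94.6, 112 and 79.3 FPKM and 104, 102 and 109 FPKM (log2 difference 0.15, standard error 0.13, limma, Benjamini-Hochberg adjusted p = 0.371). Follistatin (FST), which binds activin, was listed at 0 in parental libraries and at 0.151, 0.254 and 0.0737 FPKM in resistant libraries and was not tested. The BMP targets MSX1 and MSX2 and the targets SNAI1 and SNAI2, named after their values were seen, fell in the cells in which the ID genes rose. MSX1 had 4.06, 4.33 and 4.81 FPKM and 0.707, 0.218 and 0.517 FPKM (log2 difference −3.05, standard error 0.39, limma, Benjamini-Hochberg adjusted p = 0.00114), and MSX2 went from 3.29, 3.86 and 3.24 FPKM to 0.366, 0.353 and 0.553 FPKM. For SNAI1 and SNAI2 the parental means were 2.03 and 2.37 FPKM and the resistant means 0.163 and 0.0457 FPKM.

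**Figure D5:**
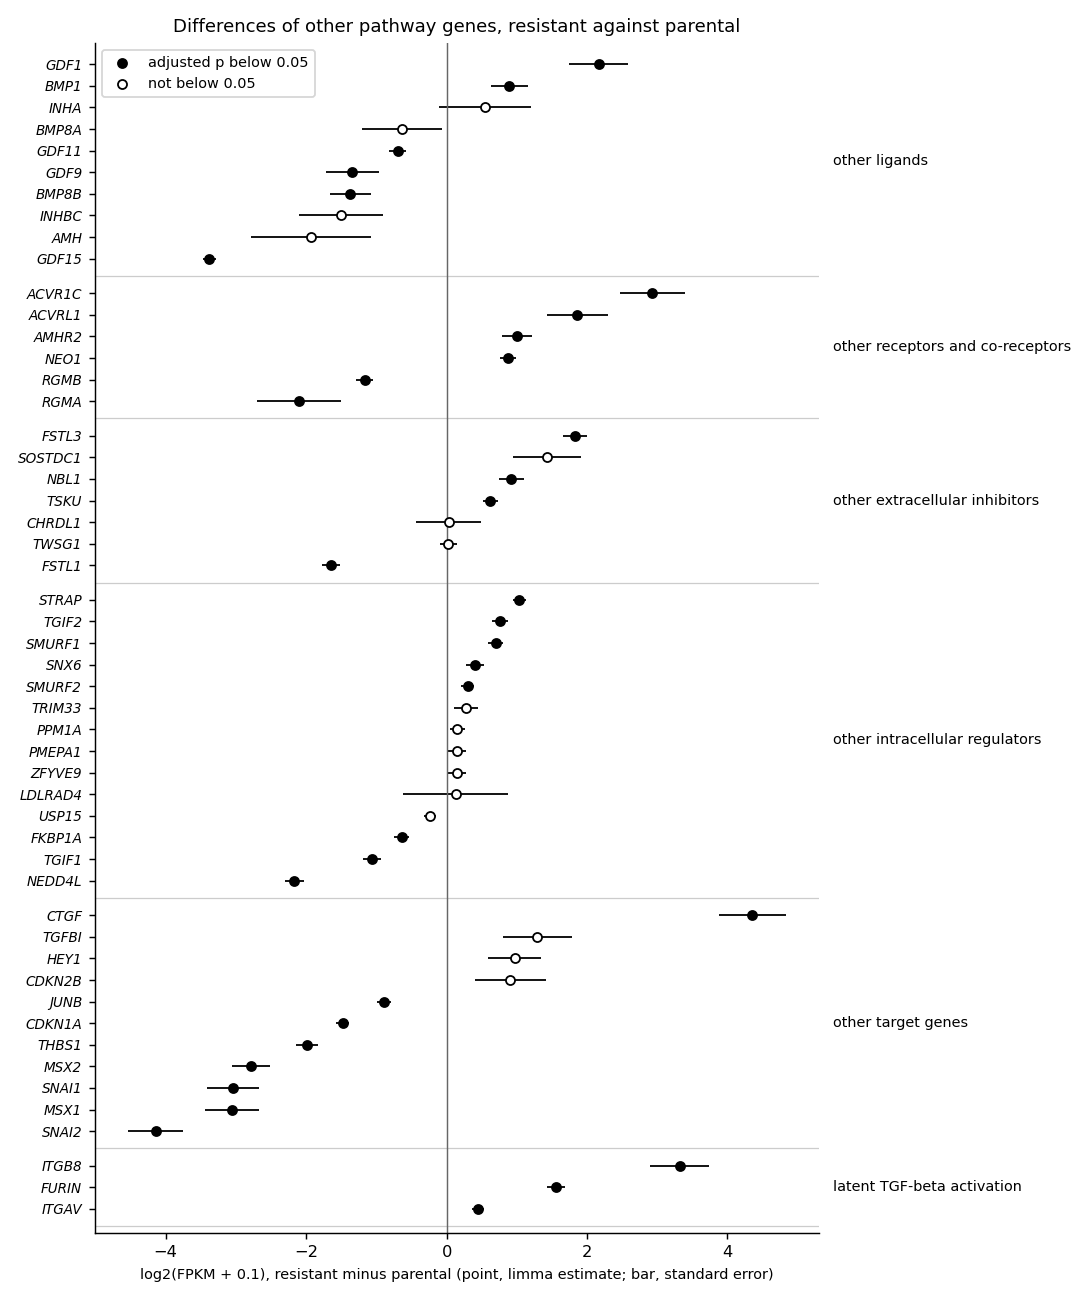
Log2 difference between resistant and parental cells (x axis) for genes of the wider list that were tested and above 0 in both groups, with bars of 1 standard error from limma, filled points for DEGs, grouped by role. GDF15 lies at −3.38 and CTGF at 4.36.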

How the data were processed

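RNA was read as single ends of 50 bp. By the paper's methods, the deposited FPKM values were made by the authors with Cufflinks 2.2.1 from reads trimmed by TrimGalore 0.4.3 and mapped by STAR 2.5.3 on GRCh38 and GENCODE v25. The submitters' processing notes list mm10, Trimmomatic 0.27 and FastQC 0.10.1 instead, while the identifiers and coordinates of the table are human. The table names no unit, and the scaling between libraries and the strand setting are not given in the sources used here. FPKM values hold no counts, so no counting interval was possible, and the depths given assume fragments of 200 bases on single-transcript genes of 600 to 8000 bases. Values rest on normalization by the authors, so that a few abundant short RNAs can shift all other genes, and overlapping genes may share reads.

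Groups came from the labels. The 24468 of 58024 genes that averaged 0.1 FPKM or more were fitted on log2(FPKM + 0.1) with limma 3.58.1 in R 4.3.3 (functions lmFit and eBayes, variance trended on the mean), and p values were adjusted over all of them with the Benjamini-Hochberg method at a threshold of 0.05. The fit was tested on simulated data. The 44 genes, the wider list and the marker lists were chosen with earlier results of these data known. All 44 genes are accounted for, and of the wider list the text names the 3 higher and 3 lower genes with the smallest adjusted p among those of at least 1 FPKM in a group, and GDF15, FST, CTGF and PMEPA1 whatever their result. Other genes of that list (MSX1, MSX2, SNAI1, SNAI2, AMH, AMHR2, RGMB, NEO1 and ACVR1C) were named after their values were seen. Some genes covered by these lists are not reported here. Neighbours of a gene were read from the loci of the table and from exons in GENCODE v44. Promoters came from RefSeq. Summaries used pandas 2.3.3 and numpy 2.4.6 under Python 3.11.15, and plots matplotlib 3.10.9. The alternatives covered the pseudocount, the filter, the scaling, the variance trend, a replicate block, each library left out and a 2-fold threshold. The authors' own Cufflinks comparisons and protein sequences were not used here.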

Additional observations from a re-analysis of the deposited data

How the results depend on the processing

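Of the 30 DEGs among the pathway genes, 25 were past the threshold under every one of the 16 settings in which they were tested, and none of the 30 reversed. TGFB2, BMP4, INHBA and INHBE averaged below 1 FPKM and were not tested under the filter of 1 FPKM. The 5 others were TGFBR3, SMAD1, SMAD4, SKIL and LTBP1, each of which lost the call with some library left out. Leaving out single libraries gave 18 to 20 upregulated and 9 to 10 downregulated pathway genes. The median log2 difference of the pathway genes was 0.36 with a pseudocount of 1 FPKM, 0.39 among genes that averaged 1 FPKM or more and 0.51 without a filter, against 0.79 as reported, and the cause was not tested. Requiring a 2-fold difference, a setting outside these 16, left 23 of the 30 pathway DEGs. Over all genes it left 6979 DEGs, 3320 of them downregulated, and in the wider list 9 upregulated and 16 downregulated genes. SMAD4 was not called without the variance trend (limma adjusted p = 0.0650), and SKIL was not called without the trend, without a filter or with median scaling (limma adjusted p from 0.0529 to 0.0860). BMP6 was called without the trend (limma adjusted p = 0.0398), as was TGFBR2 without the trend, with upper quartile scaling and after rescaling without short RNAs (limma adjusted p from 0.0156 to 0.0451). Of the genes not called, 5 near 0 or with a wide spread changed direction without being called. ACVR1B had log2 differences of 0.0224, 0.0189 and 0.0287 and SMAD2 of 0.0242, 0.0957 and 0.0305 with upper quartile scaling, quantile normalization and rescaling without short RNAs, SMAD5 of 0.0460, 0.0973 and 0.0523, and ACVR2A of 0.0209 and 0.0269 with the first and last of these. With single libraries left out the log2 difference ran from −0.0967 to 0.0750 in ACVR1B, −0.331 to 0.147 in ACVR2A, −0.125 to 0.0597 in SMAD2, −0.0253 to 0.0296 in SMAD5 and −1.62 to 0.21 in BMP7. With the replicate number as a block (replicate block), 18 pathway genes were upregulated and 10 downregulated, SMAD4 and SKIL losing the call (limma adjusted p = 0.0555 and 0.0759). Same-numbered libraries did not deviate together (r = 0.00176, 0.0180 and −0.00138 across genes), so the numbers were not taken as pairs. Depth sets a limit for genes near 0.04 FPKM, the value of about 1 read.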

Other observations

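AMH, which encodes anti-Müllerian hormone, stood apart in a single library. It was at 13.9, 8.44 and 90.5 FPKM in parental libraries and at 7.86, 4.46 and 5.29 FPKM in resistant libraries. Parental replicate 2 thus held most of the parental signal, and the gene was not called (log2 difference −1.93, standard error 0.85, limma, Benjamini-Hochberg adjusted p = 0.113). Its receptor AMHR2 was at 1.01, 1.16 and 1.2 FPKM in parental libraries and at 2.17, 2.48 and 2.39 FPKM in resistant libraries, higher in each of them (log2 difference 1.00, standard error 0.22, limma, Benjamini-Hochberg adjusted p = 0.0104).

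Of the co-receptors, RGMB, which binds BMPs, and NEO1, the neogenin receptor for this family of proteins, differed in opposite directions. RGMB was at 23.2, 29.0 and 22.4 FPKM in parental libraries and at 10.6, 11.1 and 11 FPKM in resistant libraries (log2 difference −1.17, standard error 0.12, limma, Benjamini-Hochberg adjusted p = 0.000561). NEO1 was at 13.9, 11.7 and 14.3 FPKM and at 25.6, 24.7 and 23.0 FPKM (log2 difference 0.87, standard error 0.11, limma, Benjamini-Hochberg adjusted p = 0.00116). ACVR1C, a type I receptor for NODAL, was at or near 0 in parental libraries (at most 0.00713 FPKM) and at 0.418, 0.705 and 1.04 FPKM in resistant libraries. These genes were named after their values were seen.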
